A study of Rattus norvegicus with 4 samples.

Results

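The nuclear genes of the mitochondrial respiratory chain and ATP synthase were followed in the rat retina as it matured. A gene belonged to the group if the platform annotation gave it a symbol starting with Nduf, Uqcr, Atp5, Cox4, Cox5, Cox6, Cox7 or Cox8, or the symbol Sdha, Sdhb, Sdhc or Sdhd. The rule found 62 of 9653 named genes, measured by 66 of 12750 probes with a single gene symbol, and all 66 probes had a value on all 4 arrays. By the same symbols, 22 genes were placed in complex I, 4 in complex II, 8 in complex III, 13 in complex IV and 15 in complex V. The 3 assembly factors Ndufaf2, Ndufaf4 and Ndufaf5, the supercomplex factor Cox7a2l and the inhibitor Atp5if1 also met the rule although they are not catalytic subunits. Ndufa4, named for complex I, is now counted as a subunit of complex IV.

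Whole retinas of albino Lewis rats, kept from birth in ordinary housing with a day and night cycle, were taken at 5, 11 and 20 weeks of age. Retinas were pooled, and 4 two-colour arrays compared older with 5-week retina, 2 at 11 weeks and 2 at 20 weeks, each pair with the Cy5 and Cy3 dyes exchanged. All rats shared the strain and housing, and the labels name no treatment or genotype. Nothing in the labels tells whether a dye-swapped pair used separate RNA extracts, so n = 2 counts arrays, and the p-values rest on array-to-array spread that could be purely technical. The table holds ratios and no intensities, so neither detection nor the level of retinal marker genes could be checked.

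The respiratory chain moves electrons from NADH (complex I) and succinate (complex II) through complex III to oxygen at complex IV, and the proton gradient this builds drives ATP synthase, complex V. Photoreceptors pack mitochondria into their inner segments and use ATP heavily. Most subunits are encoded in the nucleus and imported. Many of their promoters are known to bind the nuclear respiratory factor NRF1 or the ETS-family factor GABP, which help to set the subunits' levels together.

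Upstream sequence was matched by gene ID for 55 of the 62 genes in RefSeq's GRCr8 promoter table, and the 250 bases before the start used there were searched on both strands for 3 motifs. The ETS core CCGGAAG was found in 15 of 55 promoters (27.3%), read on both strands, against 7.74% of the 27457 promoters in the table and 12.8% of the 7934 promoters of named array genes. The palindrome-like consensus of NRF1, with 1 free base, can overlap its own match on the other strand and was found in 10 of 55 (18.2%), against 4.17% and 7.9%. The consensus of YY1, another regulator of these genes, was found in 0 of 55, against 0.433% and 0.731%. Atp5me alone held both an NRF1 and an ETS match. A match is a run of letters and not a shown binding site.

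The promoters printed here belong to the gene with the lowest 11-week value in each complex among those with a RefSeq entry, and show where the ETS core lies in them. They are written 5′ to 3′ in the gene's direction with matches to the ETS core in capitals. The core was found in 4 of the 5, and in 15 of all 55 promoters searched (27.3%). The 5 were chosen by their values, and a link between core and value was not tested. For Uqcrfs1, Cox7a2 and Atp5pf the window lies inside the gene's annotated span.
Ndufa6 (chr7:115750318-115750567, minus strand): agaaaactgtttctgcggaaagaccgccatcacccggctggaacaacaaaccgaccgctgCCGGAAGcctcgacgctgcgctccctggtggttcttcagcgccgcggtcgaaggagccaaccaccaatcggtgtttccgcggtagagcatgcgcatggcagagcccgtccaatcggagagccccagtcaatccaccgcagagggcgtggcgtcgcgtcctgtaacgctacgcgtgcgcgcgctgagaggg
Sdhd (chr8:59850642-59850891, minus strand): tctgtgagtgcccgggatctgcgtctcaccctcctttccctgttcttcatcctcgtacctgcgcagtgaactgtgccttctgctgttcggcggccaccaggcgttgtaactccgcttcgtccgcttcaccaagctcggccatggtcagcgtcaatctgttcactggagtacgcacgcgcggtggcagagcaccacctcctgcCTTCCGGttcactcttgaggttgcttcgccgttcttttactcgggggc
Uqcrfs1 (chr17:34186352-34186601, plus strand): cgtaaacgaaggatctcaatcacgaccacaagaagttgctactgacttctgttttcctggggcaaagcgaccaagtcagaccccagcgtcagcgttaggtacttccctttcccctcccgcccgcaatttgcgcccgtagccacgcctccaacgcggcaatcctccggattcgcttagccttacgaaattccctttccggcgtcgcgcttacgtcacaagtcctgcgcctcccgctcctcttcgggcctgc
Cox7a2 (chr8:89601150-89601399, minus strand): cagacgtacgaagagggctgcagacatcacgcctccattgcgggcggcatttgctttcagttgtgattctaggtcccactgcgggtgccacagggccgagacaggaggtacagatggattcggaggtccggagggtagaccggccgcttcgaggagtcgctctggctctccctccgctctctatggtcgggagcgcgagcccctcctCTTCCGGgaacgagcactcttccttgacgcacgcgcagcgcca
Atp5pf (chr11:37375102-37375351, minus strand): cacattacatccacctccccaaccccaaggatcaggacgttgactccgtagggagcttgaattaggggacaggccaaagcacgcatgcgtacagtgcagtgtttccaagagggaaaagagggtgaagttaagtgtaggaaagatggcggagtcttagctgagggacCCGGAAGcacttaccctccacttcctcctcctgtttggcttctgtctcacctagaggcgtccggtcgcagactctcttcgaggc

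Each value is a log2 ratio, older divided by 5-week retina, after subtracting that array's median over named probes, so 0 is the typical probe. A pair of values gives the array with the older retina in Cy5 and then the array with it in Cy3, and means carry the SD of these 2 arrays. The ratios were read as Cy5 over Cy3, which the order in the titles makes likely. If they ran the other way, every "lower" would become "higher". Whether the swapped arrays had already been turned before deposit is not stated. If they had, the values with the older retina in Cy3 would change sign, and the low position of the respiratory genes would not hold, as given with the counts for each age. Calls came from limma across all 9653 genes at a Benjamini-Hochberg adjusted p under 0.05. The model without a dye term called 0 genes at either age. An alternative model with a dye effect common to the 4 arrays did make calls, and "passed" refers to it from here on. Its standard errors for the respiratory genes lay between 0.0649 and 0.0846 and rest on 1 residual degree of freedom and on the spread across genes.

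At 11 weeks the respiratory genes lay below the typical gene. Their median change was -0.21, against 0.02 for all named genes, with array medians of -0.18 and -0.29. On both arrays 34 of 62 were below the array median (20.2% of all genes were), 4 were above it (20.5%), and 24 had their arrays on opposite sides (59.3%). With the dye term 29 of 62 passed as lower and 0 as higher, against 6.34% and 2.61% of all genes, and 28 of the 29 were below the median on both arrays. With the swapped array taken as already turned, 7 of 62 were below on both 11-week arrays and 17 above (29.4% and 29.7% of all genes), the median was 0.04, and limma with the dye term called 0 of 9653 genes. With the turning used here but no dye term limma passed 0 of 62, the smallest adjusted p among them was 0.999, and 19 had an unadjusted p under 0.05 (3.8% of all genes, in either direction).

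At 20 weeks the group again lay low. The median was -0.16, against 0.01 for all named genes, with array medians of -0.14 and -0.19. On both arrays 34 of 62 were below the median (26.7% of all genes), 4 were above it (27.1%), and 24 had their arrays on opposite sides (46.2%). With the dye term 28 passed as lower and 2 as higher, against 13.9% and 17.8% of all genes. Without it limma passed 0, with a smallest adjusted p of 0.411 and 7 genes at an unadjusted p under 0.05 (9.2% of all genes). Both ages were measured against 5-week retina, so the comparisons share that age. In them, 23 genes passed as lower at both ages, 6 as lower at 11 weeks alone and 5 as lower at 20 weeks alone. The number below the median on all 4 arrays was 28 of 62, against 12.1% of all genes. With the swapped arrays taken as already turned, 11 of 62 were below on both 20-week arrays and 12 above (22.5% and 23.3% of all genes), the 20-week median was 0.02, and 6 were below on all 4 arrays (16.2%).

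These statements hold relative to the typical gene. As deposited, before centring, all genes stood higher by 0.04 at 11 weeks and by 0.28 at 20 weeks. On that scale 47 of 62 respiratory genes had a mean below 0 at 11 weeks (49 after centring), but 18 of 62 at 20 weeks (50 after centring), and the 20-week median of the group was 0.12. The 20-week shift came from a single array: its all-gene median was 0.55 with the older retina in Cy5 and 0.009 with it in Cy3, and 2 and 46 of 62 respiratory genes were below 0 on these arrays as deposited. With the dye term on the ratios as deposited, limma called 0 of 9653 genes at 11 weeks, and 1 as lower and 132 as higher at 20 weeks, with 0 respiratory genes at either age.

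**Figure D1:**
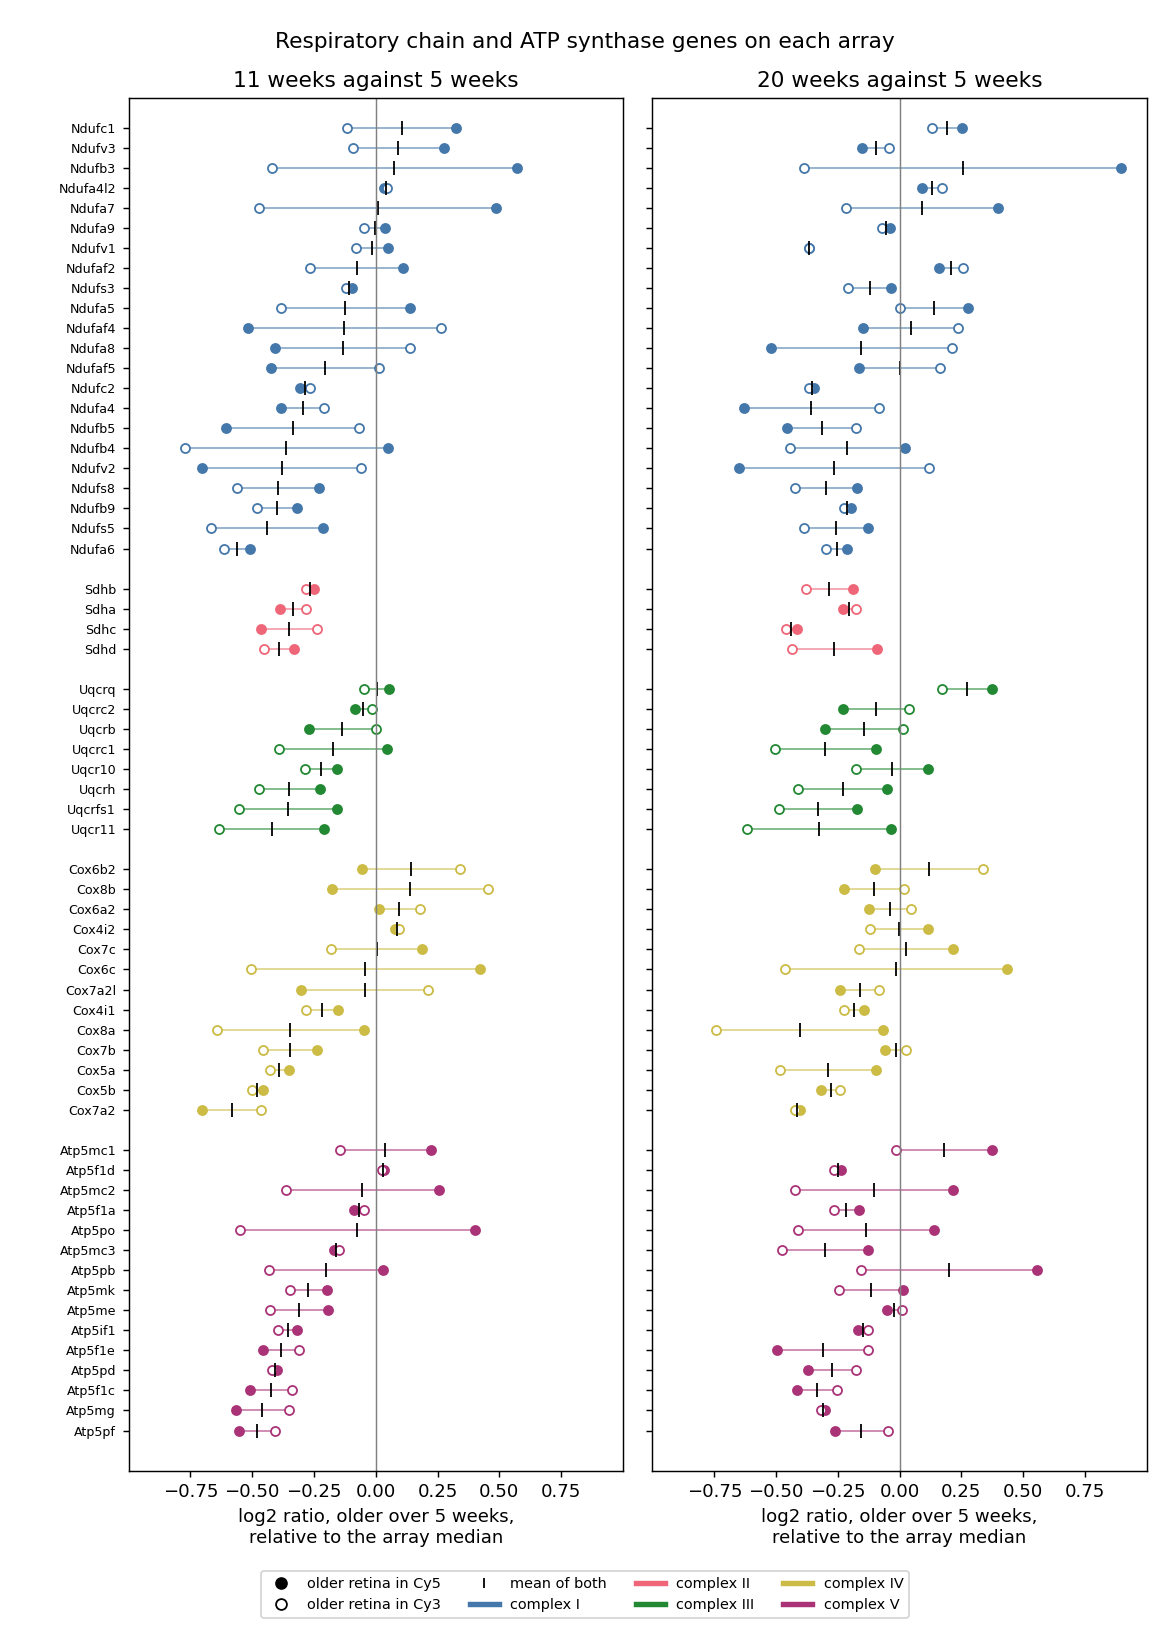
Each of the 62 genes on each array, grouped by complex. The x axis is the log2 ratio (older over 5 weeks) from the array median, with a symbol for each array. All 4 complex II genes have every point left of 0, while Cox6c, Ndufb3 and Ndufa7 have points far apart on either side of it.

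Arrays with the same dye orientation resembled each other more than the arrays of a pair did. Across 9652 genes, which are not independent replicates, the turned values of a pair correlated at r = -0.30 at 11 weeks and r = 0.17 at 20 weeks, while arrays of different ages with the same orientation correlated at 0.678 and 0.595. Taken as already turned before deposit, the pairs would correlate at 0.30 and -0.17, so the pair correlations alone do not settle the turning. Arrays of different ages with opposite orientation correlated at -0.083 and -0.344 after turning. With the dye term limma called 864 genes at 11 weeks and 3057 at 20 weeks as turned here, and 0 with the swapped arrays taken as already turned. The 2 readings were not compared by a test. The parts of dye and of shared RNA in these correlations were not tested. The median SD between the 2 arrays of a gene was 0.16 at 11 weeks and 0.18 at 20 weeks for the respiratory genes, and 0.18 and 0.16 for all genes. In 9 of 62 genes the value was above the median with the older retina in Cy5 and below it in Cy3 in both pairs, and in 6 the reverse held, against 16.9% and 16.2% of all genes. The 9 genes were Ndufa7, Ndufb3, Ndufb4, Cox6c, Cox7c, Atp5mc1, Atp5mc2, Atp5pb and Atp5po, and the 6 were Ndufa8, Ndufaf4, Ndufaf5, Uqcrb, Cox6b2 and Cox8b. Of these 15, Ndufb4 at 11 weeks and Ndufb3 at 20 weeks passed.

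**Figure D2:**
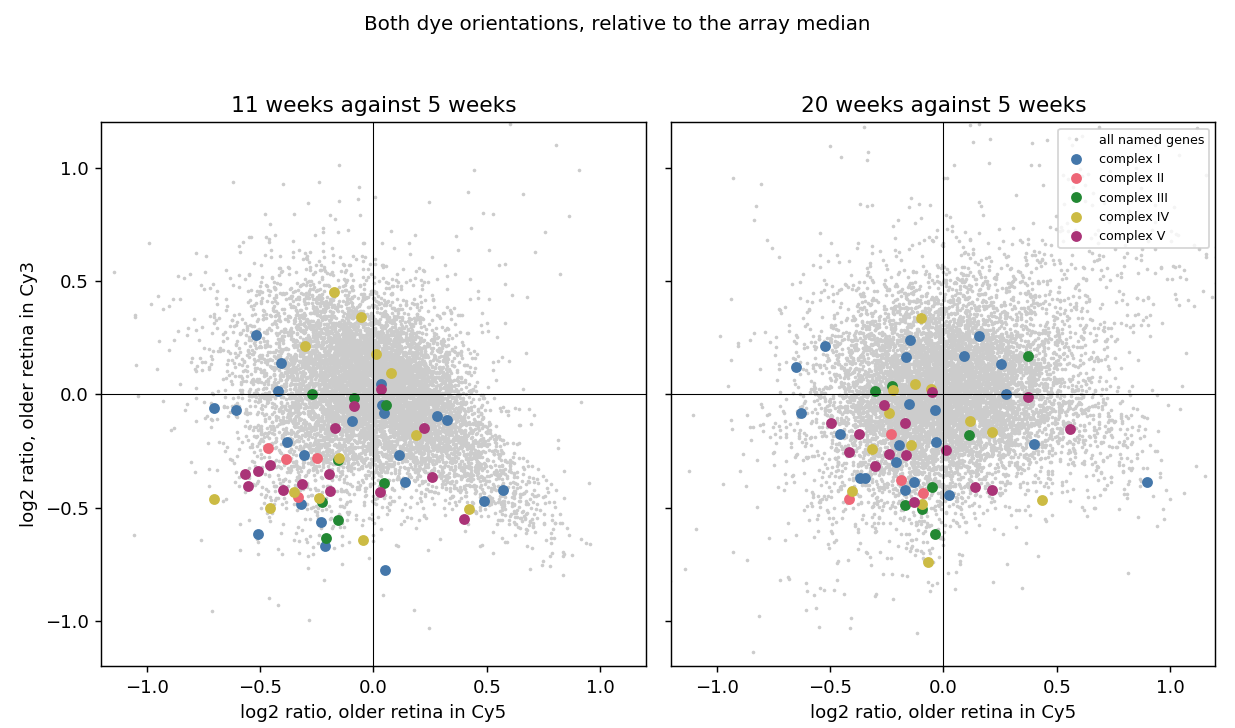
Log2 ratio, older over 5 weeks, relative to the array median with the older retina in Cy5 (x axis) against that with it in Cy3 (y axis), for all named genes (grey) and the respiratory genes (coloured), at 11 weeks (left) and 20 weeks (right). At each age 34 of 62 respiratory genes lie in the lower left, where both arrays are below the median, and 5 and 30 named genes fall outside the axes.

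Complex II, succinate dehydrogenase, was the complex in which every measured gene was below the median on every array. It links the citric acid cycle to the chain and has no mitochondrially encoded subunit. Its median was -0.34 at 11 weeks (arrays -0.36 and -0.28) and -0.27 at 20 weeks (arrays -0.21 and -0.41). All 4 genes passed as lower at both ages, against 6.34% of all genes at 11 weeks and 13.9% at 20 weeks. Sdha, the flavoprotein subunit that oxidises succinate, was at -0.39 and -0.28 at 11 weeks and at -0.23 and -0.18 at 20 weeks. Sdhb, the iron-sulfur subunit, was at -0.25 and -0.28, then at -0.19 and -0.38. Sdha's means were -0.34 ± 0.07 and -0.20 ± 0.04 (SD, n = 2 arrays) and those of Sdhb -0.27 ± 0.02 and -0.28 ± 0.14. The membrane anchor Sdhc was at -0.46 and -0.24 at 11 weeks and at -0.42 and -0.46 at 20 weeks. Its 20-week mean of -0.44 ± 0.03 was the lowest of the 62 genes at that age (Ndufv2, at -0.385, would be if the swapped arrays were already turned), with an adjusted p of 0.00216 in limma with the dye term. The other anchor, Sdhd, was at -0.33 and -0.45 at 11 weeks and at -0.09 and -0.44 at 20 weeks, so at 20 weeks it was far from the median only with the older retina in Cy3.

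Complex V, ATP synthase, had medians of -0.27 at 11 weeks and -0.15 at 20 weeks. At 11 weeks 10 of 15 genes were below the median on both arrays and 8 passed as lower, against 20.2% and 6.34% of all genes. At 20 weeks 9 were below on both arrays and 7 passed as lower, against 26.7% and 13.9%. At either age 0 passed as higher, against 2.61% and 17.8%. In F1, the catalytic part with its central stalk, Atp5f1c, the gamma subunit of that turning stalk, was at -0.51 and -0.34 at 11 weeks. At 20 weeks Atp5f1c was at -0.42 and -0.25. Its 2 probes gave means of -0.41 and -0.44 at 11 weeks and -0.37 and -0.30 at 20 weeks. Atp5f1e, the epsilon subunit of that stalk, was at -0.46 and -0.31, then at -0.49 and -0.13. Both genes passed as lower at both ages.

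The other F1 subunits measured were close to the typical gene at 11 weeks and passed as lower at 20 weeks. Atp5f1a, the alpha subunit, was at -0.09 and -0.05 at 11 weeks and at -0.16 and -0.27 at 20 weeks, with an adjusted p of 0.0347 at 20 weeks in limma with the dye term. Atp5f1d, the delta subunit of the central stalk, was at 0.03 and 0.03 at 11 weeks. At 20 weeks Atp5f1d was at -0.24 and -0.26 (-0.25 ± 0.02, adjusted p = 0.0173 in the same limma fit). Of the 62 genes, Atp5f1d alone had both arrays above the median at one age and both below it at the other. Its difference between the ages was -0.28 and did not pass (adjusted p = 0.119 in limma with the dye term).

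The peripheral stalk holds the head still against the turning rotor. Atp5pf, coupling factor 6, was at -0.55 and -0.41 at 11 weeks and at -0.26 and -0.05 at 20 weeks. Atp5pd, subunit d, was at -0.40 and -0.42, then at -0.37 and -0.18. Both passed as lower at 11 weeks, and Atp5pd also at 20 weeks, where Atp5pf had an adjusted p of 0.0966 in limma with the dye term. The other stalk genes differed by dye. Atp5po, the oligomycin sensitivity conferring protein, was at 0.40 and -0.55, then at 0.14 and -0.41. Atp5pb, subunit b, was at 0.03 and -0.43, then at 0.56 and -0.15. Neither passed at either age.

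Of the membrane subunits, Atp5mg, subunit g, was at -0.56 and -0.35 at 11 weeks and at -0.30 and -0.32 at 20 weeks and passed as lower at both ages. Atp5me, subunit e, and Atp5mk, the dimer-stabilising subunit DAPIT, passed as lower at 11 weeks (-0.31 ± 0.17 and -0.27 ± 0.11). At 20 weeks they were at -0.02 ± 0.04 and -0.12 ± 0.18 and did not pass. Atp5if1, which keeps the enzyme from running backwards, was at -0.32 and -0.40 at 11 weeks and at -0.17 and -0.13 at 20 weeks and passed at 11 weeks alone. The 3 genes of the c ring encode the same mature protein with different import signals. Atp5mc3 was at -0.17 and -0.15, then at -0.13 and -0.47, below the median on all 4 arrays, and passed at 20 weeks. Atp5mc1 was at 0.22 and -0.15, then at 0.37 and -0.01 and Atp5mc2 at 0.26 and -0.36, then at 0.22 and -0.42. These c-ring genes were above the median with the older retina in Cy5 and below it in Cy3, and did not pass.

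**Figure D3:**
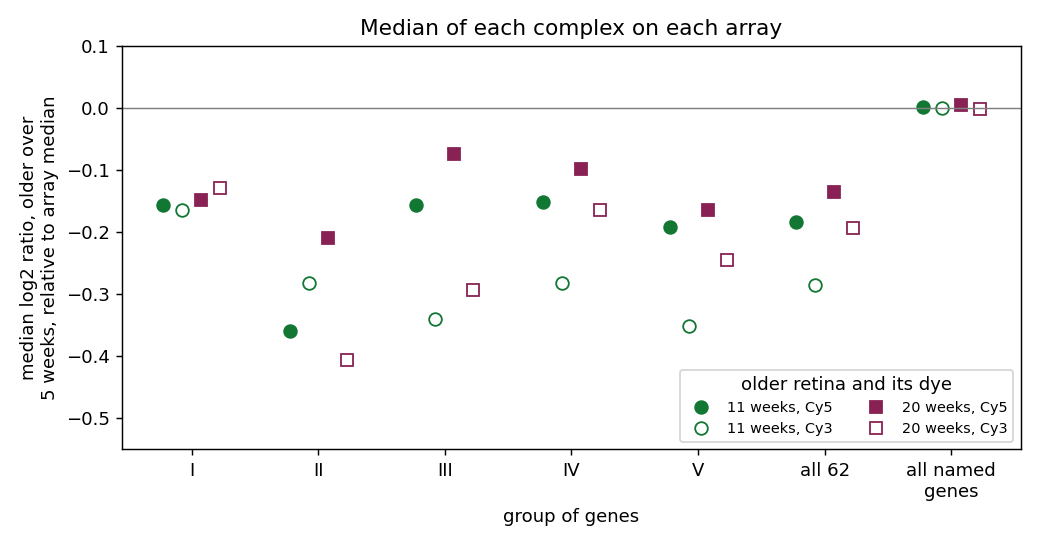
Median log2 ratio of older over 5-week retina, relative to the array median, for the genes of each complex, all 62 genes and all named genes, with a symbol for each array. All 5 complexes have medians below 0 on all 4 arrays, and complex II is at -0.36 and -0.28 at 11 weeks and -0.21 and -0.41 at 20 weeks.

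Complex III, which passes electrons from ubiquinol to cytochrome c, had medians of -0.20 at 11 weeks (arrays -0.16 and -0.34) and -0.19 at 20 weeks (arrays -0.07 and -0.29). Of its 8 genes 3 passed as lower at 11 weeks (6.34% of all genes). At 20 weeks 4 passed as lower and 1 as higher, against 13.9% and 17.8% of all genes. Uqcrfs1, the Rieske iron-sulfur protein, was at -0.16 and -0.56 at 11 weeks and at -0.17 and -0.49 at 20 weeks. Uqcr11, a small subunit, was at -0.21 and -0.64, then at -0.04 and -0.62. Uqcrh, the hinge protein, was at -0.22 and -0.47, then at -0.05 and -0.41. These 3 genes passed as lower at both ages, and each was lower with the older retina in Cy3 than in Cy5.

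Uqcrq, another small subunit, lay on the other side at 20 weeks. It was at 0.05 and -0.05 at 11 weeks and at 0.37 and 0.17 at 20 weeks, where its mean of 0.27 ± 0.14 passed as higher (adjusted p = 0.0131 in limma with the dye term). The core proteins differed from each other in their calls. Uqcrc1 was at 0.05 and -0.39, then at -0.10 and -0.50, and passed as lower at 20 weeks. Uqcrc2 was at -0.05 ± 0.05 and -0.10 ± 0.19 by age and did not pass. Its 2 probes had 11-week means of 0.0045 and -0.105, on either side of the median. Uqcr10 lay at -0.22 ± 0.09 and -0.03 ± 0.21, and Uqcrb at -0.14 ± 0.19 and -0.14 ± 0.22, and neither passed.

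Complex I, the NADH entry point, was mixed. Its median was -0.13 at 11 weeks and -0.14 at 20 weeks. At 11 weeks 9 of 22 genes passed as lower and 0 as higher, against 6.34% and 2.61% of all genes. At 20 weeks 9 passed as lower and 1 as higher, against 13.9% and 17.8%. In the arm that receives electrons from NADH, Ndufv1, the flavin-bearing core subunit, was at 0.05 and -0.08 at 11 weeks and at -0.37 and -0.37 at 20 weeks. Its 20-week mean passed as lower with an adjusted p of 0.0035 in limma with the dye term. Ndufv2, an iron-sulfur core subunit, was at -0.70 and -0.06, then at -0.65 and 0.12. It passed as lower at both ages, but was far from 0 only with the older retina in Cy5. Ndufv3 was at 0.09 ± 0.26 and -0.10 ± 0.08 and did not pass.

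In the arm that hands electrons to ubiquinone, Ndufa6, an accessory subunit, was at -0.51 and -0.61 at 11 weeks and at -0.21 and -0.30 at 20 weeks. Its 11-week mean of -0.56 ± 0.08, a ratio of 0.678, had the smallest adjusted p of the 62 genes there (0.00223 in limma with the dye term). Ndufs8, an iron-sulfur core subunit, was at -0.23 and -0.56, then at -0.17 and -0.42, and Ndufa6 and Ndufs8 passed as lower at both ages. The core subunit Ndufs3 was below the median on all 4 arrays (-0.11 ± 0.02 and -0.12 ± 0.12) and did not pass. The accessory subunits Ndufa9, at 0.04 and -0.05, then at -0.04 and -0.07, Ndufa5, at 0.14 and -0.38, then at 0.28 and 0, and Ndufa7, at 0.49 and -0.47, then at 0.40 and -0.22, did not pass either.

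In the proton-pumping membrane arm, Ndufc2 was at -0.31 and -0.27 at 11 weeks and at -0.34 and -0.37 at 20 weeks, and its 2 probes had 11-week means of -0.278 and -0.295. Ndufs5 was at -0.22 and -0.67, then at -0.13 and -0.39. Ndufb5 was at -0.61 and -0.07, then at -0.46 and -0.18. Ndufb9 was at -0.32 and -0.48, then at -0.20 and -0.22. These 4 accessory subunits passed as lower at both ages. The 2 probes of Ndufb9 had close 11-week means (-0.367 and -0.435) but different values by dye, at -0.50 and -0.23 for the former and -0.14 and -0.73 for the latter. Ndufb4 passed as lower at 11 weeks from values of 0.05 and -0.77, and had an adjusted p of 0.0594 at 20 weeks in limma with the dye term.

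Not all membrane-arm genes were low. Ndufc1 was at 0.32 and -0.12, then at 0.25 and 0.13, and did not pass. Ndufb3 was at 0.57 and -0.42, then at 0.90 and -0.39, and passed as higher at 20 weeks (0.26 ± 0.91, adjusted p = 0.0251 in limma with the dye term) although its arrays lay on opposite sides of the median. Ndufa8 was at -0.41 and 0.14, then at -0.52 and 0.21, and did not pass. The assembly factors, which help to build complex I and are not part of the finished enzyme, did not pass at either age. Ndufaf2 was at 0.11 and -0.27, then at 0.16 and 0.26, Ndufaf4 at -0.52 and 0.26, then at -0.15 and 0.24, and Ndufaf5 at -0.42 and 0.01, then at -0.16 and 0.16. With these factors left out and Ndufa4 and Ndufa4l2 moved to complex IV, the median of complex I was -0.13 at 11 weeks and -0.21 at 20 weeks.

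Complex IV, cytochrome c oxidase, reduces oxygen to water and has subunits with general forms and forms known from particular tissues. Over its 13 genes the median was -0.045 at 11 weeks (arrays -0.15 and -0.28) and -0.10 at 20 weeks (arrays -0.10 and -0.16). The -0.045 is the mean of Cox7a2l, whose 11-week arrays had opposite signs, and it lies above both array medians. At 11 weeks 5 genes passed as lower (6.34% of all genes) and at 20 weeks 4 (13.9%), all of them general forms. The 8 general forms had a median of -0.35 at 11 weeks and -0.23 at 20 weeks. The 4 forms known from other tissues lay at 0.12 and -0.02, and 0 passed. At either age 0 of these 4 were below the median on both arrays, against 20.2% and 26.7% of all genes. In so few genes a count of 0 is near the share of all genes. The difference between the forms was not tested. Without these 4 forms the median of complex IV was -0.35 at 11 weeks and -0.18 at 20 weeks.

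Among the general forms, Cox7a2, a small subunit, was at -0.70 and -0.46 at 11 weeks and at -0.40 and -0.42 at 20 weeks. Its 11-week mean of -0.58 ± 0.17, a ratio of 0.668, was the lowest of the 62 genes at that age (Ndufaf4, at -0.39, would be if the swapped arrays were already turned). Cox5b was at -0.46 and -0.50, then at -0.32 and -0.24, and Cox5a at -0.35 and -0.43, then at -0.10 and -0.48. Both of these subunits lie on the matrix side of the enzyme, and with Cox7a2 they passed as lower at both ages. Cox8a was at -0.05 and -0.64, then at -0.07 and -0.74, and also passed at both ages although it was near the median with the older retina in Cy5. Cox7b was at -0.24 and -0.46 at 11 weeks and at -0.06 and 0.03 at 20 weeks, and passed as lower at 11 weeks alone.

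Cox4i1, the general form of subunit 4, was at -0.15 and -0.28, then at -0.14 and -0.22. It was below the median on every array but missed the threshold at both ages (adjusted p = 0.0668 and 0.0557 in limma with the dye term). Cox6c was at 0.42 and -0.51, then at 0.43 and -0.46, and Cox7c at 0.19 and -0.18, then at 0.22 and -0.16. Their values changed sign with the dye in both pairs, and neither passed.

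Cox4i2, a form of lung and of low oxygen, was at 0.08 and 0.10 at 11 weeks and at 0.12 and -0.12 at 20 weeks. Cox6a2, a heart and muscle form, was at 0.01 and 0.18, then at -0.12 and 0.04. Cox8b, also a heart and muscle form, was at -0.18 and 0.45, then at -0.22 and 0.02, and the testis form Cox6b2 at -0.06 and 0.34, then at -0.10 and 0.34. Markers of skeletal and heart muscle were above the median on both arrays in 7 of 8 genes at 20 weeks (27.1% of all genes). At 11 weeks 2 of 8 were, near the share of all genes (20.5%). Their array medians were 0.35 and 0.21 at 20 weeks and 0.10 and -0.02 at 11 weeks. At 20 weeks Cox6a2 and Cox8b were at -0.04 ± 0.12 and -0.10 ± 0.17. Whether the dissection carried muscle was not tested.

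Of the paralogs Ndufa4 and Ndufa4l2, Ndufa4 was at -0.38 and -0.21, then at -0.63 and -0.08, and passed as lower at both ages. Ndufa4l2, known to be induced by low oxygen, was at 0.03 and 0.04, then at 0.09 and 0.17, above the median on all 4 arrays, and did not pass. Cox7a2l, which helps to join complexes III and IV into supercomplexes, was at -0.30 and 0.21, then at -0.24 and -0.08, and did not pass.

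**Figure D4:**
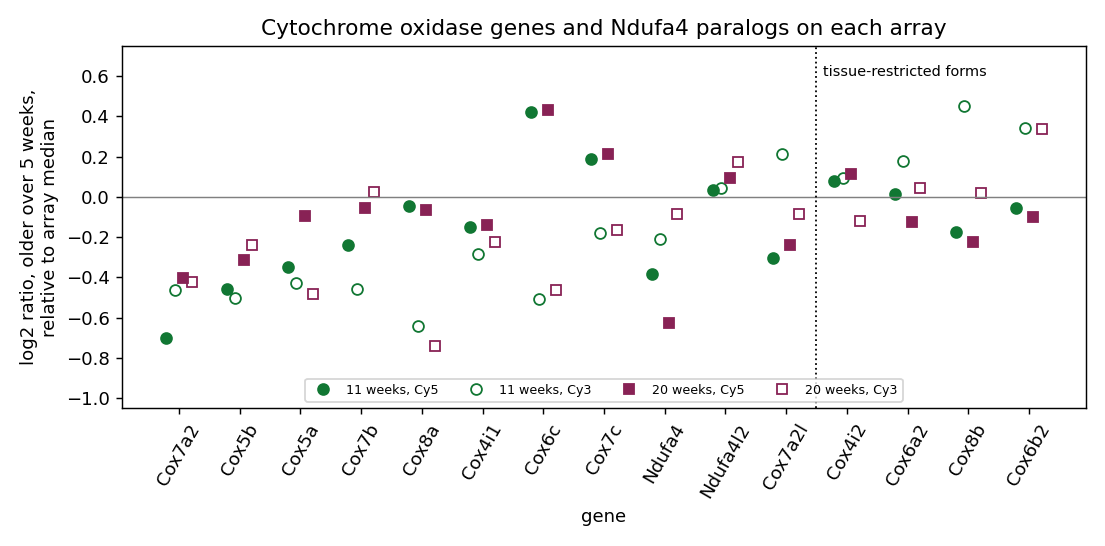
Log2 ratio (older over 5 weeks) from the array median for each cytochrome oxidase gene and both Ndufa4 paralogs, with a symbol for each array. General forms such as Cox7a2 and Cox5b have all 4 arrays below 0, while the 4 tissue-restricted forms scatter around 0.

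The genes were also set beside the promoter matches. The 15 genes with the ETS core had a median change of -0.35 at 11 weeks and -0.25 at 20 weeks, and the other 40 had -0.14 and -0.13. Among all named array genes the same split gave -0.02 with the core and 0.02 without it at 11 weeks, and -0.03 and 0.02 at 20 weeks. The 10 genes with the NRF1 motif lay at -0.15 and -0.10, and the other 45 at -0.27 and -0.21. This split was made with the genes' values known and was not tested.

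Between 11 and 20 weeks, compared through the 5-week retina, no respiratory gene passed in limma with or without the dye term. Without it, 0 of 62 had an unadjusted p under 0.05 (2.8% of all genes did), and with it the smallest adjusted p was 0.0518, against calls in 3.55% (higher) and 1.18% (lower) of all genes. The 20-week mean was above the 11-week mean in 39 of 62 genes (52.9% of all genes), with a median difference of 0.09. Leaving out each array in turn moved that median between 0.010 (without the 20-week array with the older retina in Cy5) and 0.152 (without that in Cy3). Atp5pb had the largest difference, 0.40. The differences were 0.33 for Cox7b, 0.33 for Atp5pf, 0.31 for Ndufa6, 0.29 for Atp5me and -0.35 for Ndufv1. Each age had its own slides, and the effects of slide and of age cannot be told apart.

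Other mitochondrial genes are given from lists, to be read against the 6.34% lower and 2.61% higher of all genes at 11 weeks and the 13.9% and 17.8% at 20 weeks. Assembly factors outside the symbol rule had medians of -0.15 at 11 weeks and -0.14 at 20 weeks, and 3 of 23 passed as lower at each age, near the all-gene share at 20 weeks, with 0 and 1 higher. Cox17, the copper chaperone of complex IV, passed in opposite directions, at -0.35 ± 0.06 and 0.22 ± 0.12. Uqcc2, an assembly factor of complex III, was at 0.12 ± 0.11 and then at -0.52 ± 0.06, passing as lower at 20 weeks. Of 12 electron carriers and coenzyme Q genes, 2 passed as lower at each age and 0 then 1 as higher (medians -0.03 and -0.02). Cycs, cytochrome c, was at -0.28 ± 0.14 and passed at 11 weeks, and was at -0.16 ± 0.09 at 20 weeks. Etfb, a subunit of the flavoprotein that feeds electrons from fat oxidation, was at 0.05 ± 0.21 and then at 0.65 ± 0.19, passing as higher at 20 weeks.

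The list of inner and outer membrane carriers held 13 genes, among them the mitochondrial creatine kinases Ckmt1 and Ckmt2, which are not carriers. Of these genes, 3 passed as lower and 0 as higher at 11 weeks, and 6 and 3 at 20 weeks, with medians of -0.075 and -0.09. Ckmt2, at 0.28 ± 0.29, was among the 3 higher at 20 weeks. Slc25a5 and Slc25a4, which exchange ADP for ATP, were at -0.38 ± 0.48 and -0.25 ± 0.21 at 11 weeks, and at -0.52 ± 0.09 and -0.38 ± 0.33 at 20 weeks. Slc25a3, which imports phosphate for ATP synthase, was at -0.17 ± 0.11 and then at -0.45 ± 0.16. The outer-membrane pores Vdac1 and Vdac2 were at -0.29 ± 0.11 and -0.34 ± 0.11, and at 0.14 ± 0.03 and 0.36 ± 0.01. Vdac1 and both ADP/ATP exchangers passed as lower at both ages, and at 20 weeks alone Slc25a3 passed as lower and Vdac2 as higher.

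The citric acid cycle list left out the complex II genes, all of which passed as lower at both ages. Of its 13 genes, 0 passed at 11 weeks, and 4 passed as lower and 1 as higher at 20 weeks (medians -0.06 and -0.04). The lowest at 20 weeks, Idh3g, was at -0.18 and -2.86, so a single array set its mean. Of 44 mitochondrial ribosomal protein genes, 6 passed as lower at each age, near the all-gene share at 20 weeks, with 0 and 5 higher (medians -0.06 and -0.04). Mrps21 was the lowest at 11 weeks, at -0.50 ± 0.06. Of 20 import genes, 4 passed as lower and 1 as higher at 11 weeks, and 3 and 1 at 20 weeks (medians -0.08 and -0.04), the 20-week share lower again near that of all genes. Tomm7, a small subunit of the outer membrane translocase, was at -0.61 ± 0.14 and -0.41 ± 0.38, and Pmpca, a subunit of the peptidase that removes import signals, at 0.31 ± 0.03 and 0.43 ± 0.26.

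Regulators of mitochondrial gene expression gave 2 of 17 lower and 0 higher at 11 weeks, and 2 and 3 at 20 weeks (medians -0.01 and -0.06), both 20-week shares near those of all genes. Tfam, which packs and transcribes mitochondrial DNA, was at -0.26 ± 0.10 and passed as lower at 11 weeks, then at -0.11 ± 0.03. Gabpa and Gabpb1, the subunits of the ETS-family factor GABP, were at 0.03 ± 0.04 and -0.13 ± 0.18, then at -0.12 ± 0.14 and -0.16 ± 0.06, and did not pass. Of 11 genes of mitochondrial dynamics 1 passed as lower at each age and 0 then 1 as higher (medians 0.03 and -0.06). Of 7 mitochondrial antioxidants 2 then 3 passed as lower (medians -0.21 and -0.19), among them Sod2, the manganese superoxide dismutase, at -0.26 ± 0.06 and -0.39 ± 0.11.

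Several groups outside the mitochondrion also had medians below 0. Their counts are to be read against the same shares of all genes. These were 6.34% lower and 2.61% higher at 11 weeks, and 13.9% and 17.8% at 20 weeks. In the smallest lists a count of 1 lies near the 20-week shares. In whole-retina RNA, fewer cells of a type and less RNA per cell cannot be told apart. Of 20 rod markers, 9 passed as lower at each age, with array medians of -0.09 and -0.34 at 11 weeks and -0.005 and -0.48 at 20 weeks. Of 7 cone markers 1 passed as lower and 1 as higher at 11 weeks, and 0 and 3 at 20 weeks (medians -0.03 and 0.06). Of 47 cytosolic ribosomal protein genes, 35 and then 21 passed as lower and 0 and then 2 as higher (medians -0.37 and -0.17), and of 16 glycolytic genes 6 and then 10 passed as lower (medians -0.21 and -0.30). Of 11 lens markers 7 and then 5 passed as lower (medians -0.30 and -0.18). Of 9 Müller cell and astrocyte markers 3 and then 7 passed as lower and 0 and then 1 as higher (medians -0.06 and -0.29). Of 8 ganglion cell markers 2 and then 4 passed as lower (medians -0.07 and -0.23), and of 9 bipolar, amacrine and horizontal cell markers 2 and then 4 (medians -0.08 and -0.18). Of 5 pigment epithelium and choroid markers 1 passed as lower at each age and 1 and then 2 as higher (medians 0.16 and 0.04), and of 6 blood markers 0 and then 1 as higher (medians 0.06 and 0.09). Of the 8 muscle markers 0 passed at 11 weeks, and 1 as lower and 5 as higher at 20 weeks. The part of these in the respiratory values was not tested.

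**Figure D5:**
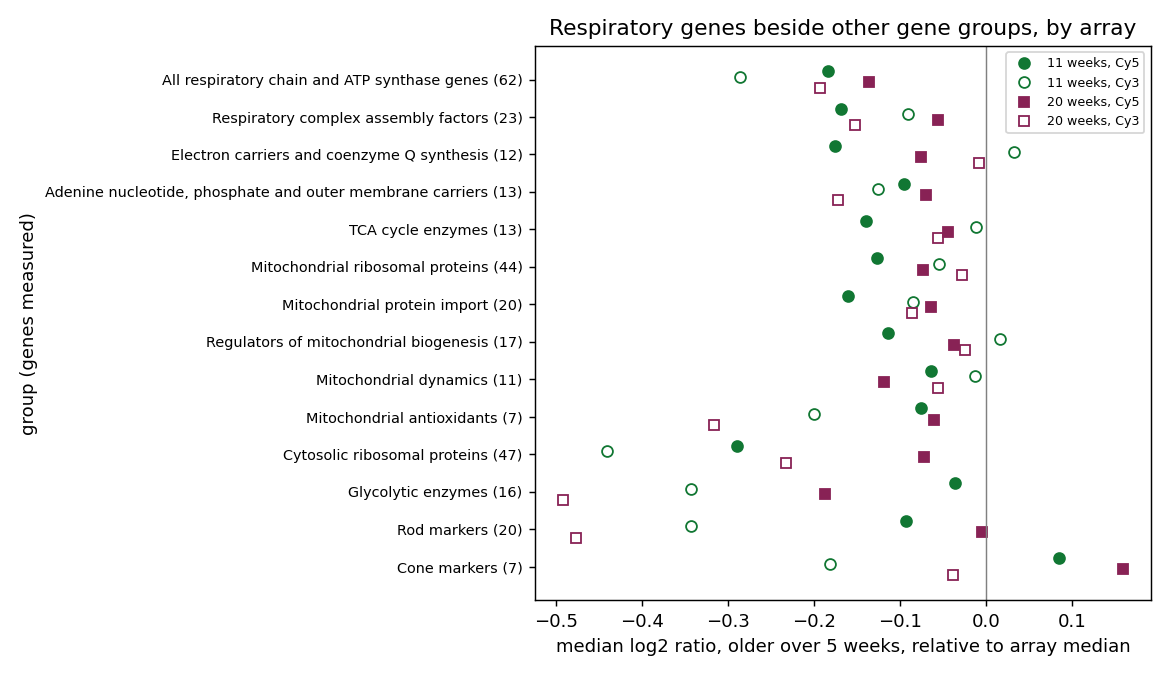
Median log2 ratio (older over 5 weeks) from the array median of the respiratory genes and of other gene groups, with a symbol for each array. The respiratory genes lie at -0.18 and -0.29 on the 11-week arrays and -0.14 and -0.19 on the 20-week arrays, and the cytosolic ribosomal proteins lie lower on the 11-week arrays.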

How the data were processed

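The authors deposited log2 ratios of the 2 channels for 22575 probes (scale judged from the values: 251 probes reached a ceiling of 16.61, log2 of 100000, none of them named). Their normalization is not given in the sources used here. Per the labels' protocols, RNA of pooled retinas was amplified and carried Cy5 or Cy3 labels. The platform annotation gave 1 symbol for 12750 probes, several for 5 and none for 9820, and only the 12750 were used. Each array was centred on their median, turned to older over 5 weeks, and probes were averaged by gene. limma 3.58.1 in R 4.3.3 (lmFit, eBayes, two-sided) was fitted to 4 arrays and 9653 genes without a dye term (2 residual degrees of freedom) and, as an alternative, with it (1). The scripts were tested on simulated data. That check was on the estimated size of an added change, not on the number of genes called. With 2 arrays a comparison, their number limits the precision.

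Within each complex and age, the 3 lowest and 3 highest genes with both arrays on the same side were named, with complex II, isoform sets, genes whose probes disagreed and genes that passed. Other members were named to account for all 62. From the other lists, genes beyond the lowest and highest were chosen after their values were seen. Members and lists were chosen with earlier results of these data known. Alternatives were the centring, scaling, dye term, handling of probes, leaving out each array and, added later, taking swapped arrays as already turned.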

Additional observations from a re-analysis of the deposited data

Results flagged for a closer look

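Atp5f1d, the delta subunit of ATP synthase, was above the array median on both 11-week arrays and below it on both 20-week arrays, and the difference between the ages was -0.28 (log2). In limma with the dye term this difference had an adjusted p of 0.119, and the ages share the 5-week retina and lie on separate slides.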

How the results depend on the processing

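Adding the dye term raised the calls from 0 to 864 of all genes and 29 respiratory genes at 11 weeks, 3057 and 30 at 20 weeks, and 457 of all genes between the ages. The dye-term counts depended on the centring. At 11 weeks centring on all probes gave 337 genes lower and 114 higher (25 respiratory, all lower) and the ratios as deposited 0. At 20 weeks they gave 1264 and 1378 (28 and 2 respiratory), and 1 and 132 (0 respiratory). Between the ages they gave 60 and 214, and 0 and 1. On the ratios as deposited, without centring and without the dye term, 95 genes were called at 20 weeks and 1 between the ages. The 20-week medians then changed sign, to 0.118 for all 62 genes and 0.139, 0.003, 0.090, 0.174 and 0.122 for complexes I to V. Complex I at 11 weeks was -0.088, and the differences between the ages were 0.322 for all 62 and 0.330, 0.289, 0.295, 0.256 and 0.370 for complexes I to V. Scaling the arrays gave complex I -0.122 at 20 weeks, each probe as a feature -0.170 and -0.158 at 11 and 20 weeks, and genes with 1 probe -0.108 at 20 weeks. Of the alternatives chosen after seeing the data, grouping by function gave complex I -0.211 at 20 weeks, and leaving out tissue-restricted forms gave complex IV -0.346 and -0.183. Taking the swapped arrays as already turned, also chosen after seeing the data, left 0 genes called in every comparison with and without the dye term. It put the 11-week medians at 0.040 for all 62 genes and 0.058, -0.018, 0.095, 0.022 and 0.010 for complexes I to V, the 20-week medians at 0.019 and 0.012, 0.059, 0.152, 0.011 and 0.013, and the difference between the ages at -0.006 for all 62, -0.064 for complex I and 0.008 for complex V.

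Leaving out each array in turn gave 11-week medians from -0.285 to -0.184 for all 62 genes, and from -0.165 to -0.131, -0.360 to -0.282, -0.340 to -0.157, -0.282 to -0.045 and -0.352 to -0.192 for complexes I to V. At 20 weeks it gave 0 to 5 genes called, -0.194 to -0.136 for all 62 genes, -0.164 to -0.099 for complex IV and -0.245 to -0.154 for complex V. The difference between the ages ranged from 0.010 to 0.152 for all 62 genes, -0.012 to 0.089 for complex I, -0.077 to 0.091 for complex II, -0.008 to 0.241 for complex III and -0.050 to 0.163 for complex IV, so the sign for these complexes rested on single arrays. The labels give no replicate numbers, but arrays of different ages can be matched by dye orientation, and the fit with the dye term is the fit with that block. The causes were not tested.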
